A study of Homo sapiens with 9 samples.

Results

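The FOXA family loci are 3 stretches of the human genome, each holding 1 FOXA gene with 200 kb on either side, and their members are the regions of accessible chromatin called there. Peaks from 9 libraries were joined wherever they shared at least 1 bp, which gave 128994 regions, and 87 of these overlapped the loci. The FOXA1 window, on chromosome 14 from 37858000 to 38265000 (hg19), held 21 regions. The FOXA2 window, on chromosome 20 from 22361000 to 22766000, held 13, and the FOXA3 window, on chromosome 19 from 46167000 to 46578000, held 53. Regions are numbered within each window from the lower coordinate. The gene interval below is the window less its flanks, which is 38058000 to 38065000 for FOXA1, 22561000 to 22566000 for FOXA2 and 46367000 to 46378000 for FOXA3. These ends are given to whole kb and are not from an annotation, so positions close to a gene end are approximate.

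The libraries came from 22Rv1, a human prostate carcinoma line, and in all 9 the SF3B1 gene, which encodes a splicing factor, had been edited to the C1111S form. Accessibility was read by ATAC-seq, in which a transposase cuts open chromatin. The 3 groups of 3 libraries were cells given DMSO (0.1%, the vehicle), the stereoprobe WX-02-23 (20 µM) or the stereoprobe WX-02-43 (20 µM), each for 3 h. The labels do not say whether the edited cells were 1 clone or whether replicates were separate cultures, so the p-values below measure only the spread between these libraries, which may be technical. No unedited cells were compared here, and bulk libraries cannot tell fewer cells with an open site from a site that is less open in each cell.

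FOXA1, FOXA2 and FOXA3 encode forkhead transcription factors, which bind DNA through a winged-helix domain and can engage sites within compact chromatin, a property for which they are called pioneer factors. FOXA1 marks luminal prostate epithelium, where it works with the androgen receptor. FOXA2 is known from endoderm and from neuroendocrine prostate tumours, and FOXA3 from liver and gut.

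Within 50 kb of FOXA1 and of FOXA3, the deepest pileup lay near the 5′ end of the gene interval. That region overlapped the interval at FOXA1 and ended 224 bp before it at FOXA3. The sequences just before the starts of these genes are shown for this reason. They are the 250 bases before each start, written 5′ to 3′ on the strand of the gene, from RefSeq (GRCh38.p14), at chr14:37595250-37595499 (minus strand) and chr19:45864076-45864325 (plus strand). Capitals mark the forkhead-type letters TGTTTGC read on the opposite strand. FOXA2 had no entry. These coordinates are of another build than the peaks, so the sequences were not placed on the regions.
FOXA1 promoter: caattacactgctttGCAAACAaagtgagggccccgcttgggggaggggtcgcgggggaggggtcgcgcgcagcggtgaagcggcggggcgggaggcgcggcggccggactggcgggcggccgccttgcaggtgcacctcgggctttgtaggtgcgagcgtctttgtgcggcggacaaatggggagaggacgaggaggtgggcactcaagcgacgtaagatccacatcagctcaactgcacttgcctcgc
FOXA3 promoter: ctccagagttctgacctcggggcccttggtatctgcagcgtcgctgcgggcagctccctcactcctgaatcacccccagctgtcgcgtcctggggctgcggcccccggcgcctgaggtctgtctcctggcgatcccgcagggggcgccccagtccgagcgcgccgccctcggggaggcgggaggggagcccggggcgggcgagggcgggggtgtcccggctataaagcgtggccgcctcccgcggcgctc
Both strands were searched for TGTTTAC and TGTTTGC, which differ from each other in their sixth letter and so give separate matches. FOXA1 had 1 match, starting at base 16 of the printed sequence, and FOXA3 had 0. Of 35116 RefSeq promoters of the same length, 6.09% held at least 1 of the 2 motifs. The GC content was 67.2% for FOXA1 and 75.2% for FOXA3, against a median of 58.0% over these promoters. A match is a run of letters and not a measured binding site.

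The 3 loci differed in how densely open regions lay. FOXA3 lay in the densest of them, with a median gap of 5613 bp between neighbouring regions. The median gap was 10866 bp in the FOXA1 window and 31390 bp in the FOXA2 window, against 11228 bp over all regions. The largest stretch without any called region was 116.6 kb at FOXA1, 87.1 kb at FOXA2 and 24.0 kb at FOXA3. Within 50 kb of the gene interval there were 11 regions at FOXA1, 3 at FOXA2 and 14 at FOXA3. The RefSeq list (GRCh38.p14, used for names only) places 17 other protein-coding genes within 200 kb of FOXA3, SYMPK and IRF2BP1 being the nearest on either side. It places 2, MIPOL1 and TTC6, within the same distance of FOXA1. At FOXA2 it places 1, LOC124904962, among 11 genes of any kind, with LINC00261 nearest on the lower side and LNCNEF on the higher. Regions were not assigned to genes, so those of each window may belong to any of its genes.

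**Figure D1:**
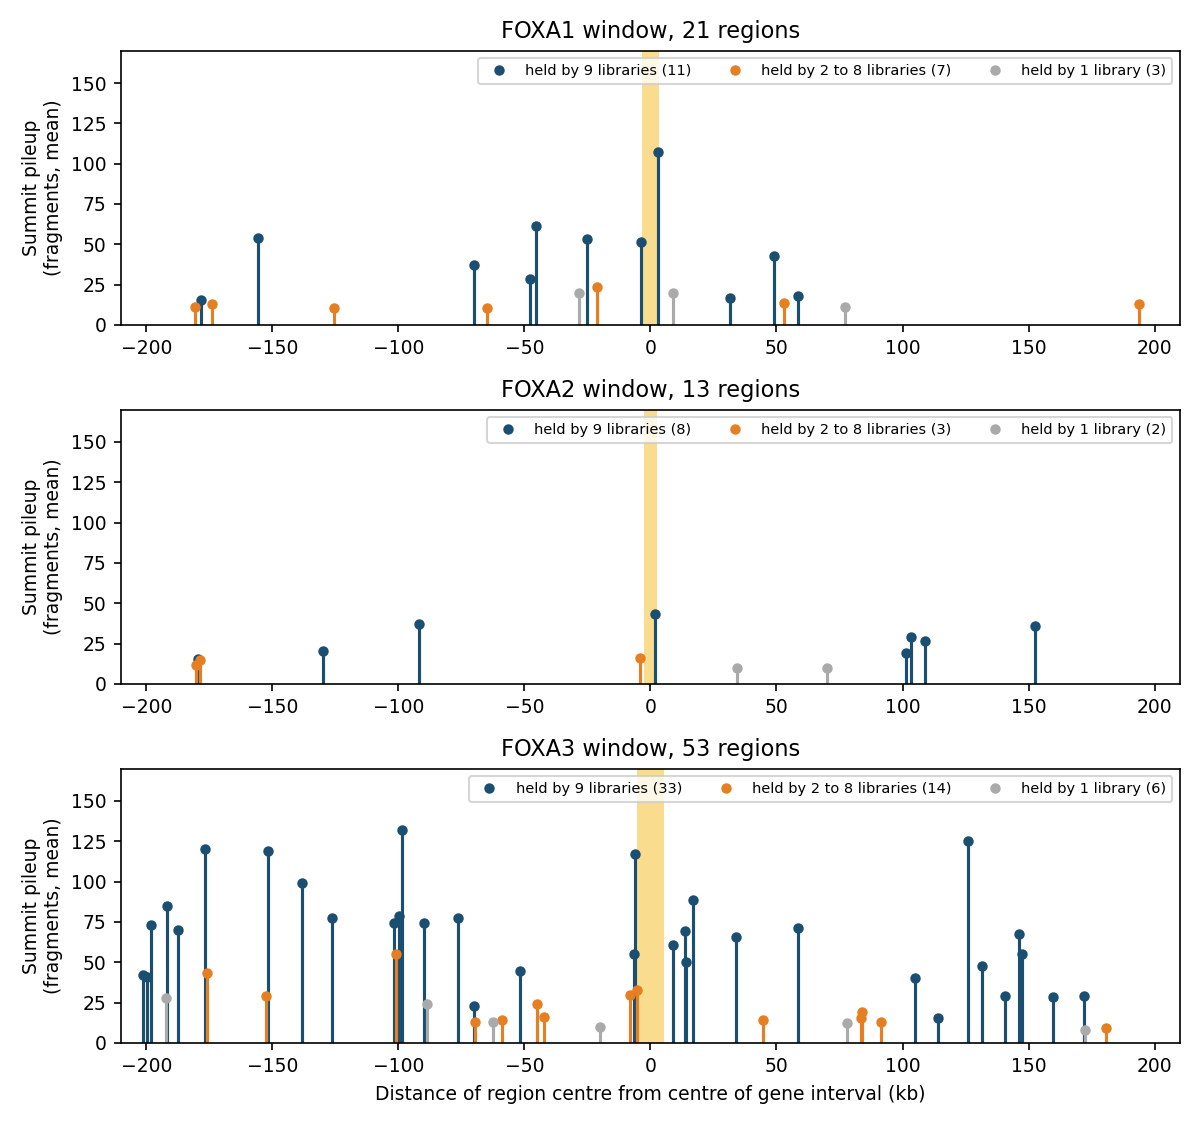
Each stem is 1 region, placed by the distance of its centre from the centre of the gene interval (kb), with its height giving the mean summit pileup in fragments over the libraries that held it; the yellow band is the gene interval and colours give the number of libraries holding the region. The FOXA3 window is crowded with tall stems, while the FOXA2 window has 3 regions within 50 kb of the gene.

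Most members were found repeatedly. All 9 libraries held 52 of the 87 regions (59.8%, against 46.2% of all regions), 24 were held by 2 to 8 libraries and 11 by a single library. By locus, all 9 libraries held 11 of 21 regions at FOXA1, 8 of 13 at FOXA2 and 33 of 53 at FOXA3. At the window edges, the outermost regions inside lay 22.6 and 9.43 kb from the edge at FOXA1, 22.0 and 49.8 kb at FOXA2 and 3.96 and 24.8 kb at FOXA3. The nearest outside lay 19.1 and 25 kb, 4.01 and 9 kb, and 17.4 and 2.29 kb away.

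Each peak carries a fold enrichment, the stacked fragments at its summit over the local background, both raised by 1. A region with several peaks in a library takes the values of its strongest peak. The same fold can come from different numbers of fragments, so the summit pileup was solved for as well. Over regions held by all 9 libraries, the median local background was 2.79 fragments at FOXA1, 1.76 at FOXA2 and 7.99 at FOXA3, against 2.69 for all such regions. The median pileup was 43 fragments at FOXA1, 27.9 at FOXA2 and 69.4 at FOXA3, against 33 overall. The median fold was 7.92, 8.91 and 7.55, against 8.82. FOXA3 regions had the deepest pileup of the 3 loci and the lowest median fold, and 23 of its 33 shared regions stood at a higher percentile by pileup than by fold. This held for 4 of 11 at FOXA1 and 1 of 8 at FOXA2. Percentiles here and below were taken among shared regions within each library and averaged over the 9 libraries.

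**Figure D2:**
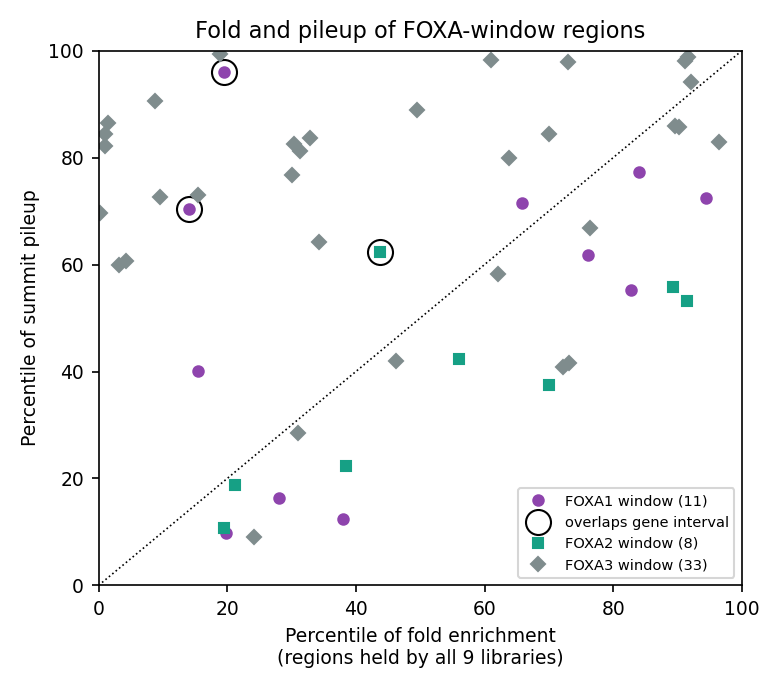
Each point is 1 of the 52 regions held by all 9 libraries, coloured by locus. It is placed by its percentile of fold enrichment (x) and of summit pileup (y) among the 59637 such regions of the whole genome. Percentiles were taken within each library and averaged over the 9 libraries. Points above the diagonal rank higher by pileup than by fold, as 23 of 33 FOXA3 regions do, and rings mark regions overlapping a gene interval; FOXA1 region 14 stands at 19.5 by fold and 96.1 by pileup.

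At FOXA1, 2 regions overlapped the gene interval, and all 9 libraries held both. FOXA1 is transcribed from the minus strand, so region 14, at 38063741 to 38065623 (1883 bp, the widest of the window), lay at the 5′ end. Its fold was 6.6, 6.57 and 5.86 in the DMSO libraries, 5.91, 6.1 and 6.19 with WX-02-23, and 6.81, 5.88 and 6.32 with WX-02-43. The groups overlapped, with means of 6.35 ± 0.42, 6.06 ± 0.14 and 6.34 ± 0.47 (SD, n = 3 each). The summit held 100, 119 and 112 fragments in DMSO, 115, 93 and 103 with WX-02-23, and 103, 104 and 112 with WX-02-43, again overlapping. This placed the region at the 96.1 percentile of shared regions by pileup but at the 19.5 percentile by fold, beside a local background of 16.3 fragments. The strongest summit fell between 38065380 and 38065441 in every library, a span of 61 bp, although the region was called as 1, 2 or 3 peaks depending on the library.

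Region 13, at 38057351 to 38058439 (1089 bp), lay at the 3′ end of the FOXA1 interval. Its fold was 5.69, 5.27 and 5.32 in DMSO, 5.39, 5.9 and 5.43 with WX-02-23, and 6.32, 6.39 and 5.48 with WX-02-43. In the last group 2 libraries stood above all 6 others and the third lay within their range. The log2 difference of WX-02-43 from DMSO was 0.24 (SE 0.11, 95% interval -0.005 to 0.490, limma adjusted p = 0.666), the highest of the 11 FOXA1 regions tested in that comparison, and it did not pass the test.

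The highest folds of the FOXA1 window lay away from the gene. Region 4 (37905491 to 37906201), 152 kb on the lower side and so beyond the 3′ end, had the highest mean fold, 15.0, at the 94.5 percentile of shared regions. Its values were 16.6, 13.4 and 16.6 in DMSO, 15.1, 15.7 and 13.9 with WX-02-23, and 13.9, 15 and 14.4 with WX-02-43, and the groups overlapped. Region 9 (38015843 to 38016720), 41.3 kb on the same side, averaged 12.7. Its fold was 12.9, 14.8 and 11.2 in DMSO, 11.9, 14 and 13 with WX-02-23, and 13.6, 11.2 and 11.9 with WX-02-43. Region 6, 66.1 kb away, averaged 12.4 and region 11, 21.3 kb away, 10.3, both also on the 3′ side. Region 17, 45.2 kb beyond the 5′ end, averaged 11.6. In each of these 5 regions the strongest summits of the 9 libraries lay within 69 bp of one another, and the 3 groups overlapped. The other 14 FOXA1 regions averaged 3.11 to 7.92 fold, and 10 of them were missing from at least 1 library.

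**Figure D3:**
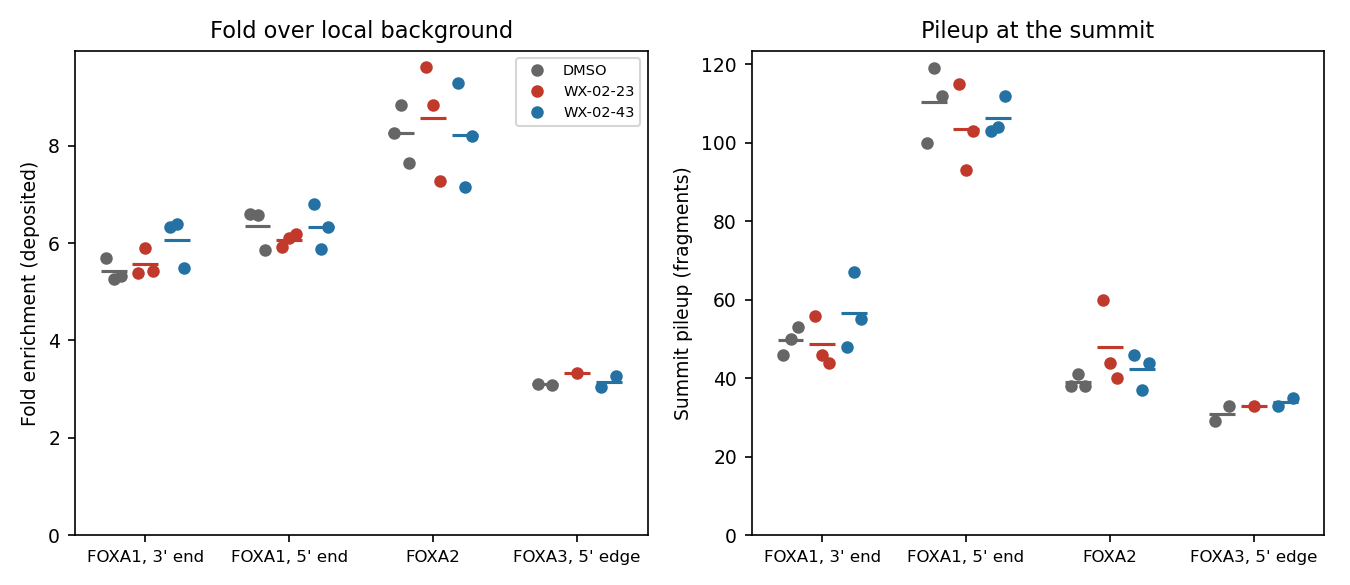
Fold enrichment (left) and summit pileup in fragments (right) in each library for the 4 regions that overlap a FOXA gene interval (FOXA1 regions 13 and 14, FOXA2 region 7 and FOXA3 region 31, from left to right); each point is 1 library, horizontal bars are group means, and a library without a called peak has no point. FOXA1 region 14 has the highest pileup, 93 to 119 fragments, at a fold of 5.86 to 6.81, with the 3 groups overlapping.

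At FOXA2, region 7 (22564677 to 22566020, 1344 bp, the widest of its window) was the only one to overlap the gene interval, at its higher end. Its fold was 8.26, 8.84 and 7.65 in DMSO, 9.62, 8.83 and 7.28 with WX-02-23, and 9.28, 7.16 and 8.2 with WX-02-43. Means were 8.25 ± 0.59, 8.58 ± 1.2 and 8.22 ± 1.1 (SD, n = 3 each), and the groups overlapped. The summit held 37 to 60 fragments, which placed the region at the 62.3 percentile by pileup and the 43.7 percentile by fold. The other leading FOXA2 regions were distant. Region 13 (22715588 to 22716165), 150 kb on the higher side, averaged 14.3 fold and region 5 (22471417 to 22472008), 89.0 kb on the lower side, 13.5. Regions 12 and 11, 106 and 101 kb on the higher side, averaged 10.9 and 9.46.

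The presence of a called peak set WX-02-23 apart at 1 FOXA2 region. Region 6 (22559060 to 22559585, 526 bp), 1.42 kb below the gene interval, had a peak in each WX-02-23 library and in no DMSO or WX-02-43 library. Its fold was 6.57, 7.74 and 5.79, from 17, 18 and 14 fragments, with -log10 q of 9.97, 12.2 and 7.54. In the 6 libraries without a peak, the lowest pileup called anywhere at a like background was 7 or 8 fragments. For comparison, the 2277 regions gained with WX-02-23 against DMSO over the genome, the set to which it belongs, had medians of 5.9 fold and 13.3 fragments. The peak of WX-02-23 replicate 2 spanned 211 bp, and those of replicates 1 and 3 spanned 514 and 504 bp. The summits did not coincide, lying at 22559205, 22559392 and 22559449 in replicates 1, 2 and 3, a spread of 244 bp. That of replicate 1 lay outside the peak of replicate 2 (22559321 to 22559531). When a library had to cover at least 50% of the region, replicate 2 no longer counted and the gain was not met. The nearest listed gene on this side of FOXA2 is LINC00261, and whether the region belongs to it or to FOXA2 was not tested.

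Region 2 of the FOXA2 window (22383670 to 22383974), 177 kb below the gene interval, is described after its values were seen. Its fold was 4.54, 5.6 and 5.14 in DMSO, 8.44, 8.53 and 6.72 with WX-02-23, and 6.83, 4.74 and 4.52 with WX-02-43. All WX-02-23 libraries lay above all DMSO libraries, while WX-02-43 replicate 1 lay just above the lowest WX-02-23 library. With each library given the same distribution, as in the test below, WX-02-43 replicate 1 stood further above it, at 7.43 against 6.65. The pileup was 10, 13 and 13 fragments in DMSO, 23, 22 and 15 with WX-02-23, and 17, 12 and 13 with WX-02-43. Against DMSO the log2 difference with WX-02-23 was 0.64 (SE 0.17, 95% interval 0.268 to 1.003), with a limma adjusted p of 0.0979, which missed the threshold of 0.05. It was 0.64 with an adjusted p of 0.0453 in a fit on the regions held by those 6 libraries. Between the stereoprobes the log2 difference was 0.49 (SE 0.17, 95% interval 0.12 to 0.85, adjusted p = 0.224), and 0.71 (adjusted p = 0.0433) without WX-02-43 replicate 1.

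At FOXA3, the only region to overlap the gene interval was weak. Region 31 (46366836 to 46367134, 299 bp) spanned the lower end of the interval, taken as the 5′ end of this plus-strand gene. With interval ends at whole kb, whether region 31 or its neighbour region 30 overlaps the gene itself is not resolved. It had a peak in DMSO replicates 1 and 2 (3.11 and 3.09 fold), WX-02-23 replicate 3 (3.33) and WX-02-43 replicates 2 and 3 (3.05 and 3.26), and in no other library. Region 30 (46366076 to 46366776), which ends 224 bp before the gene interval and is named for its position after the values were seen, was held by all 9. Its fold was 11.3, 10.6 and 10.8 in DMSO, 10.4, 11.8 and 11.4 with WX-02-23, and 11.8, 11.1 and 10.8 with WX-02-43, from 108 to 127 fragments, and the groups overlapped. Set beside FOXA1 region 14, its mean pileup was 117 against 107 fragments, its mean fold 11.1 against 6.25 and its local background 9.61 against 16.3 fragments. SYMPK is the nearest listed gene on this side of FOXA3, and whether region 30 belongs to SYMPK or to FOXA3 was not tested.

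Higher folds in the FOXA3 window were again distant. Region 38 (46430868 to 46431506), 52.9 kb on the higher side, had the highest mean fold of all 87 members, 15.7, at the 96.4 percentile. Its fold was 15.2, 18.7 and 16.7 in DMSO, 14.7, 16.4 and 16.3 with WX-02-23, and 14.4, 14.7 and 14.1 with WX-02-43. The WX-02-43 libraries all lay below the DMSO libraries, but the log2 difference was -0.17 (SE 0.10, 95% interval -0.38 to 0.04, limma adjusted p = 0.748). Regions 11, 10 and 12, 132, 146 and 120 kb on the lower side, averaged 14.2, 13.9 and 13.7 fold. Region 45, 120 kb on the higher side, had 105 to 140 fragments at its summit. Its fold averaged 13.8 ± 0.37 in DMSO, 13.7 ± 0.78 with WX-02-23 and 14.6 ± 0.22 with WX-02-43 (SD, n = 3 each). Here the WX-02-43 libraries (14.5, 14.4 and 14.8) all lay above the DMSO and WX-02-23 libraries, whose highest was 14.3. The log2 difference of WX-02-43 from DMSO was 0.13 (SE 0.085, limma adjusted p = 0.787). The widest FOXA3 region, region 35 (46388603 to 46390228, 1626 bp), lay 10.6 kb beyond the 3′ end and averaged 5.15 fold from 78 to 103 fragments.

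Presence calls at FOXA3 concerned 3 regions of low mean fold (2.95 to 5.37). Region 42 (46463871 to 46464166), 85.9 kb beyond the 3′ end, had a peak in all 3 DMSO libraries (17, 11 and 11 fragments) and all 3 WX-02-23 libraries (13, 12 and 13), and in no WX-02-43 library. Region 40 (46455868 to 46456151), 77.9 kb beyond the 3′ end, had a peak in all 3 DMSO libraries (19, 12 and 16 fragments), in WX-02-23 replicates 1 and 3 (17 and 13) and in no WX-02-43 library. Region 28 (46364202 to 46364409), 2.59 kb before the 5′ end, had a peak in the 3 WX-02-43 libraries alone, with 28, 30 and 31 fragments over a background of 9.39. At like backgrounds the lowest pileup called was 7 or 8 fragments for region 42, 9 or 10 for region 40 and 23 or 24 for region 28. The pileup in libraries without a call is not known. With lists cut to equal length, none of the 3 calls was met.

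**Figure D4:**
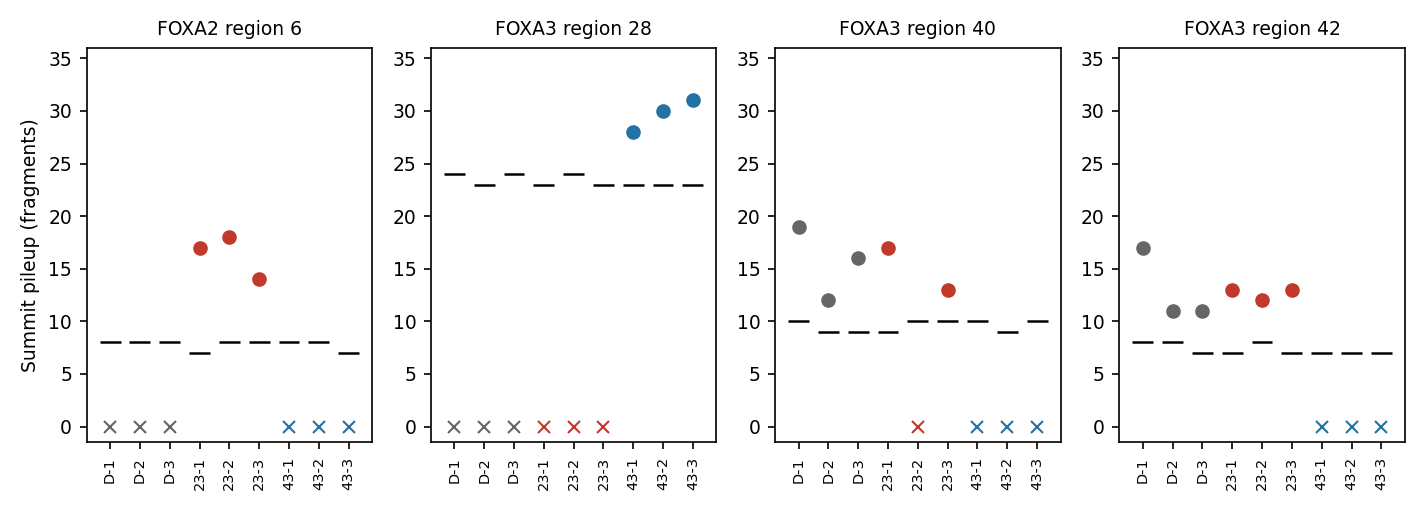
Summit pileup in fragments (y) in each library (D, DMSO; 23, WX-02-23; 43, WX-02-43; number, replicate) for the 4 members gained or lost in presence. Points are called peaks, crosses at 0 mark libraries without a called peak, whose pileup is not known, and black bars give the lowest pileup called at a like background in that list. FOXA2 region 6 stands at 14 to 18 fragments in WX-02-23 over bars at 7 or 8, while FOXA3 region 28 stands at 28 to 31 over bars at 23 or 24.

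The presence calls were counted against the share of all regions. A region counts as gained where all 3 libraries of the first group hold it and none of the second does, and as lost in the opposite case. With WX-02-23 against DMSO, 1 of 87 members was gained (1.15%, against 1.77% of all regions) and 0 were lost (against 0.739%). With WX-02-43 against DMSO, 1 was gained (1.15%, against 0.331%) and 2 were lost (2.30%, against 0.366%). With WX-02-23 against WX-02-43, 2 were gained (2.30%, against 1.43%) and 1 was lost (1.15%, against 0.806%). FOXA2 region 6 and FOXA3 regions 28 and 42 each enter 2 of these comparisons, which share libraries. The share of members lay above that of all regions in both directions for WX-02-43 against DMSO and for WX-02-23 against WX-02-43, and below it for WX-02-23 against DMSO, each from a count of 0, 1 or 2 regions. With all 9 libraries no FOXA1 region was gained or lost. Some counts rose when a library was left out. The criterion then covered 2 libraries of that group in place of 3, so a count could stay or rise but not fall. Leaving out DMSO replicate 1 or 2 gave 1 or 2 lost with WX-02-23 against DMSO, and leaving out DMSO replicate 3 gave 2 gained with WX-02-43. Leaving out WX-02-43 replicate 1 or 3 gave 3 or 2 lost between the stereoprobes. The regions that came in included FOXA1 region 3 (lost with WX-02-23 against DMSO without DMSO replicate 2, and against WX-02-43 without WX-02-43 replicate 1) and FOXA1 region 21 (gained with WX-02-43 against DMSO without DMSO replicate 3). Without WX-02-43 replicate 3, FOXA1 region 5 was lost with WX-02-43 against DMSO and gained with WX-02-23 against WX-02-43, and FOXA1 region 7 was lost in the latter.

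The strength of the 52 regions held by all 9 libraries was compared by limma on the log2 fold, after each library had been given the same distribution over the 59637 shared regions, so that a difference reflects a change of rank within the library. None of the 52 passed an adjusted p of 0.05 in any of the 3 comparisons. Over all shared regions, WX-02-23 against DMSO gave 0.699% higher and 0.795% lower, so that with 52 regions a count of 0 is near the background. WX-02-43 against DMSO gave 0.00% higher and 0.00% lower, and WX-02-23 against WX-02-43 gave 0.518% higher and 0.921% lower. At an unadjusted p under 0.05 stood 1, 3 and 4 members in these comparisons, against 12.3%, 7.61% and 13% of all regions. The median log2 difference of the members was 0.023, 0.034 and -0.006, against 0.003, 0.009 and -0.004 for all. On simulated data for WX-02-23 against DMSO, 100 of 59637 regions were changed by 0.5 on the log2 scale and 100 by 1. This test recovered 18% of the former and 68% of the latter. The real comparison called more regions than were changed there (417 higher and 474 lower), so its adjusted threshold was less strict. The simulation also took each region's observed spread as its true one, so its recovery need not be that of the real test. Recovery among the members was not measured, and a member that differed by the smaller amount may have been missed.

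By locus, the log2 differences of WX-02-23 from DMSO ran from -0.31 to 0.26 over 11 FOXA1 regions, with 5 higher and 6 lower, and from -0.12 to 0.28 over 33 FOXA3 regions, with 21 higher and 12 lower. Over 8 FOXA2 regions they ran from -0.07 to 0.64, with 4 higher and 4 lower, region 2 giving the highest value. Those of WX-02-43 from DMSO ran from -0.07 to 0.24 at FOXA1, -0.09 to 0.21 at FOXA2 and -0.31 to 0.29 at FOXA3, with 4 higher and 7 lower, 6 higher and 2 lower, and 22 higher and 11 lower. Both comparisons share the DMSO libraries. At FOXA1 region 14, beside the start of the gene, the difference was -0.07 with WX-02-23 (95% interval -0.32 to 0.18) and 0.09 with WX-02-43 (-0.16 to 0.33). Between the stereoprobes it was -0.15 (-0.40 to 0.09), an interval that includes 0. The last value was -0.31 on the mean fold of the region's peaks and -0.04 on pileup. At FOXA2 region 7 the stereoprobes differed by -0.02 (-0.32 to 0.28), or by -0.36 on the mean fold of its peaks and 0.17 on pileup, and at FOXA3 region 30 by -0.08 (-0.30 to 0.14).

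**Figure D5:**
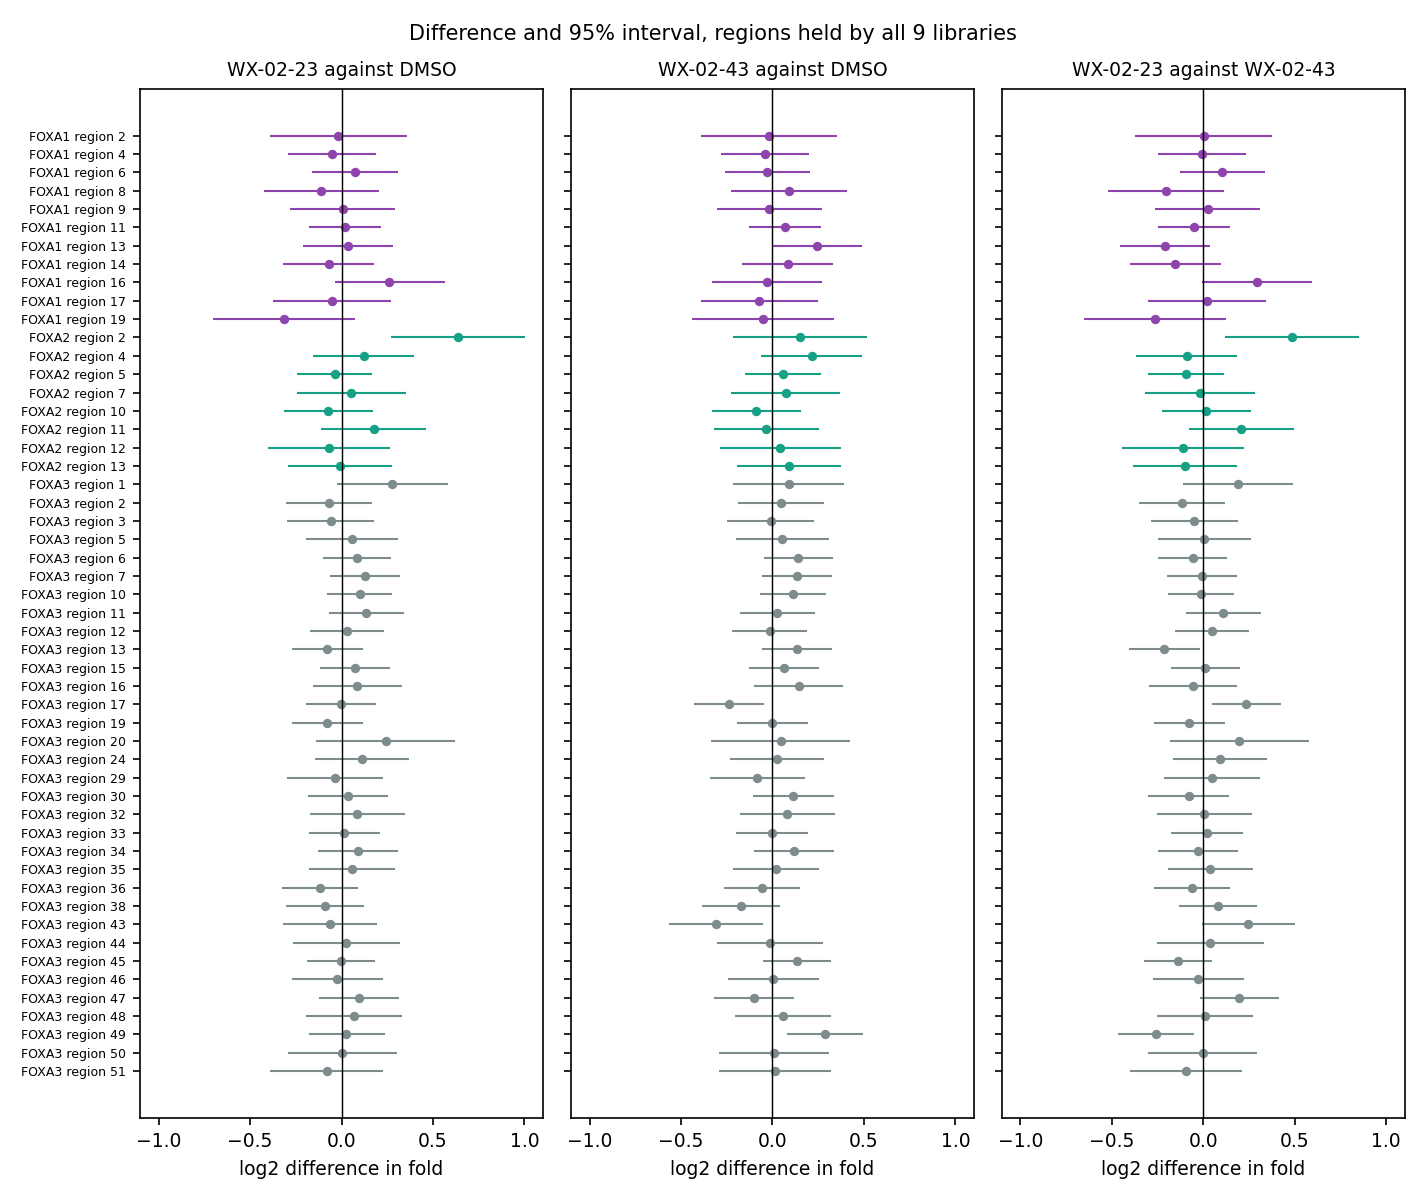
Log2 difference in quantile-normalised fold enrichment (x) for regions held by all 9 libraries in the 3 windows, in each of the 3 comparisons, with bars for the 95% interval and colours for the locus. None passed the adjusted threshold; FOXA2 region 2 stands highest, at 0.64 for WX-02-23 against DMSO.

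Away from FOXA2 region 2, the members with an unadjusted p under 0.05 all lay in the FOXA3 window and are given after their values were seen. At region 17 (46282462 to 46283228) the fold was 9.21, 9.38 and 9.27 with WX-02-43, below the DMSO libraries (11.6, 11.5 and 11.7) and the WX-02-23 libraries (11.3, 11.1 and 12.4). The log2 difference of WX-02-43 from DMSO was -0.24 (SE 0.09, limma adjusted p = 0.557) and that of WX-02-23 from WX-02-43 was 0.24 (SE 0.09, adjusted p = 0.262). At region 43 (46477149 to 46477616) the WX-02-43 libraries gave 8.78, 8.76 and 7.85 and the DMSO libraries 10, 11.7 and 11.4 (log2 difference -0.31, adjusted p = 0.569). At region 49 (46519170 to 46520378) the order was the other way. WX-02-43 gave 6.36, 6.45 and 6.27, above the DMSO libraries at 5.46, 5.92 and 5.29 (log2 difference 0.29, adjusted p = 0.522) and the WX-02-23 libraries at 5.54, 5.39 and 6.12 (log2 difference of WX-02-23 from WX-02-43 -0.26, adjusted p = 0.258). On the mean fold of the region's peaks, these differences were 0.14 and -0.01. Region 13 (46270684 to 46270983) differed between the stereoprobes by -0.21 (adjusted p = 0.327). None of these passed the test across all regions.

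The FOXA1 window held 16, 15 and 19 peaks in DMSO, 16, 18 and 16 with WX-02-23, and 17, 17 and 18 with WX-02-43. The FOXA2 window held 9, 11 and 10, then 11, 11 and 11, then 9, 10 and 10 in the same order. The FOXA3 window held 44, 46 and 46, then 49, 44 and 43, then 42, 42 and 47. Groups overlapped in the FOXA1 and FOXA3 windows, and in the FOXA2 window the WX-02-23 libraries equalled the highest DMSO library and lay above all WX-02-43 libraries. Counted as regions held, the FOXA2 window gave 9, 10 and 10 in DMSO, 10, 11 and 10 with WX-02-23, and 9, 10 and 10 with WX-02-43, so that all 3 groups overlapped; region 7 was called as 2 peaks in WX-02-23 replicates 1 and 3 and as 1 peak in the other libraries. The lists they came from held 81962 to 105132 peaks, with a commonest background of at most 1.41 fragments.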

How the data were processed

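ATAC-seq peak lists of 9 libraries were used, 3 per group. The submitters' processing notes name Bowtie2, MACS2 and hg19; the sources used here do not give tool versions or calling settings. Each deposited list was called on 1 library and gives per peak the authors' fold enrichment (a ratio), −log10 p, −log10 q and score; the score was not used. Folds are the authors' own values within a list.

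Intervals on chromosomes 1 to 22 and X were merged at 1 bp. Pileup and background were solved from fold and −log10 p with the Poisson model that MACS2 uses. A whole-number pileup fitted 100.00% of summits within 0.002. Fragments are the units MACS2 stacked. Read totals were not analysed here.

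Strength was tested with limma 3.58.1 in R 4.3.3 on quantile-normalised log2 fold computed from the deposited folds, over 59637 regions held by all 9 lists, with Benjamini-Hochberg adjustment over all of them and threshold 0.05. The test was also run on simulated data, drawn from the means and spreads of these same regions. Counts over members and values per locus have no test. Named regions are those overlapping the gene interval, the 5 of highest mean fold per locus, any called or gained or lost, and the widest. Members, lists and tests were chosen with earlier results of these data known. Alternatives were other scalings, pileup, mean fold of a region's peaks, regions held by 6 lists, another prior, a replicate block, 100 kb windows, equal-length lists (81962 peaks), −log10 q of at least 5, 50% coverage and leaving out each library. An hg19 genome and annotation were not used here, so cell type markers were not checked.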

Additional observations from a re-analysis of the deposited data

How the results depend on the processing

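The counts of members called by strength stayed at 0 under the other scalings, pileup, the mean fold of a region's peaks, the other prior and 100 kb windows. The exception was 1 called higher with WX-02-23 against DMSO over regions held by the 6 libraries compared, which was FOXA2 region 2 (adjusted p = 0.0453). Leaving out single libraries gave 0 to 1 called higher with WX-02-23 against WX-02-43, the 1 being FOXA2 region 2 without WX-02-43 replicate 1, and 0 elsewhere. Equal replicate numbers did not pair the libraries (correlations of deviations from -0.109 to 0.12 over 9 same-numbered pairs, and 4 of 9 libraries closest to their own number). With the replicate block 0 members were called in each comparison, and 357 higher and 342 lower over all regions with WX-02-23 against DMSO, against 417 and 474. In presence, 50% coverage left 0 gained with WX-02-23 against DMSO. Equal-length lists left 0 gained and 0 lost with WX-02-43 against DMSO, and 1 gained and 0 lost with WX-02-23 against WX-02-43, while FOXA2 region 6 was still gained. A −log10 q of at least 5 left 1 lost with WX-02-43 against DMSO. Leaving out single libraries gave 0 to 2 lost with WX-02-23 against DMSO, 1 to 2 gained and 2 to 3 lost with WX-02-43 against DMSO, and 2 to 3 gained and 1 to 3 lost with WX-02-23 against WX-02-43. Such presence counts could not fall by construction. Mean peaks per library fell from 16.9 to 14.9 (FOXA1), 10.2 to 9.22 (FOXA2) and 44.8 to 41.4 (FOXA3) in equal-length lists, which hold fewer peaks by construction, and to 15.1 at FOXA1 with −log10 q of at least 5. Small differences changed sign. On pileup, FOXA1 region 13 gave -0.001 (WX-02-23 against DMSO), FOXA1 region 14 -0.026 (WX-02-43 against DMSO) and FOXA2 region 7 0.169 (WX-02-23 against WX-02-43). FOXA2 region 7 gave -0.288 with WX-02-23 against DMSO on the mean fold of its peaks, and 0.31 on pileup. Its mean fold takes in second peaks of 3.16 and 3.54 fold, called only in WX-02-23 replicates 1 and 3. On the mean fold, FOXA1 region 14 gave -0.151 with WX-02-23 and 0.161 with WX-02-43 against DMSO. Leaving out libraries gave -0.021 to 0.121 for FOXA1 region 13 with WX-02-23 against DMSO. FOXA1 region 14 gave -0.161 to 0.016 with WX-02-23 and -0.007 to 0.172 with WX-02-43 against DMSO. FOXA2 region 7 gave -0.042 to 0.162 and -0.035 to 0.17 in the same order, and -0.116 to 0.091 between the stereoprobes. The causes of these changes were not tested. The effect of depth was not tested. Pileups under the lowest one called at a like background, which was 7 or 8 fragments at FOXA2 region 6 and 23 or 24 at FOXA3 region 28, are not seen in these lists.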
